A study of Mus musculus with 2 samples.

Results

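Selective autophagy cargo receptors were compared between a 4T1 tumour library from the protein degrader arm and one from the control arm. The 10 receptor genes Sqstm1, Nbr1, Optn, Tax1bp1, Tollip, Calcoco1, Bnip3, Fundc1, Phb2 and Stbd1 were chosen by symbol among 34259 gene rows holding whole-number counts, and all 10 were found. 4T1 is a mouse mammary carcinoma cell line, a single line, so one genetic background of tumour cells stands behind both libraries. The degrader acts on a protein related to autophagy that the labels do not name, and it was given by injection 3 times before tumours were taken from the mice. The other library carries the label control. What those mice received, the strain, age and sex of all mice, and whether tumours were pooled are not stated in the labels. Both libraries were built from 1.5 µg of RNA. Since the labels put the treated library in batch 1 and the control library in batch 2, an effect of batch and one of treatment cannot be told apart. Each group holds a single library, so the spread between tumours is unknown, no test was run, and every difference below is one between these libraries.

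Cargo receptors decide what an autophagosome takes in. Each one holds its cargo with one part of the protein and binds an ATG8 protein (LC3 or GABARAP) on the growing autophagosome membrane with another, through a short stretch called the LC3-interacting region. Soluble receptors such as Sqstm1 (p62) recognise ubiquitin on protein aggregates, damaged mitochondria or bacteria, whereas receptors such as Bnip3 and Fundc1 are anchored in the organelle to be removed. In tumours Sqstm1 also ties autophagy to the oxidative stress factor NRF2, and Bnip3 is one of the best known targets of the hypoxia factor HIF-1.

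Bnip3 was the receptor whose transcript differed most between the libraries, 2.58-fold lower in the treated library, and Stbd1, the glycogen receptor, was 2.01-fold lower. The other 8 receptors differed less: Tax1bp1, Phb2, Optn and Calcoco1 were at higher values in the treated library and Sqstm1, Nbr1, Tollip and Fundc1 at slightly lower ones. Levels are given in CPM (counts relative to library totals, brought to a common size by trimmed-mean scaling, TMM), and log2 ratios as treated over control after adding 1 CPM to both. A receptor was counted as measured where its mean level reached 10 CPM, as 9 of the 10 did; Calcoco1 averaged 7.35 CPM. Of these 9, 1 was at least 2-fold lower on that log2 scale and 0 were at least 2-fold higher, beside 2.5% and 4.23% of the 8865 genes measured in all. At 1.5-fold, 2 of the 9 were lower and 0 higher, beside 9.02% and 12.8% of all measured genes. The median log2 ratio of the 9 receptors was -0.09, that of all measured genes 0.03, and 6 of the 9 lay below 0, beside 47.5% of all measured genes. Across all measured genes the middle part of the distribution, from the lower to the upper quartile, ran from -0.26 to 0.34, and the receptors' own quartiles were -0.26 and 0.34.

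**Figure D1:**
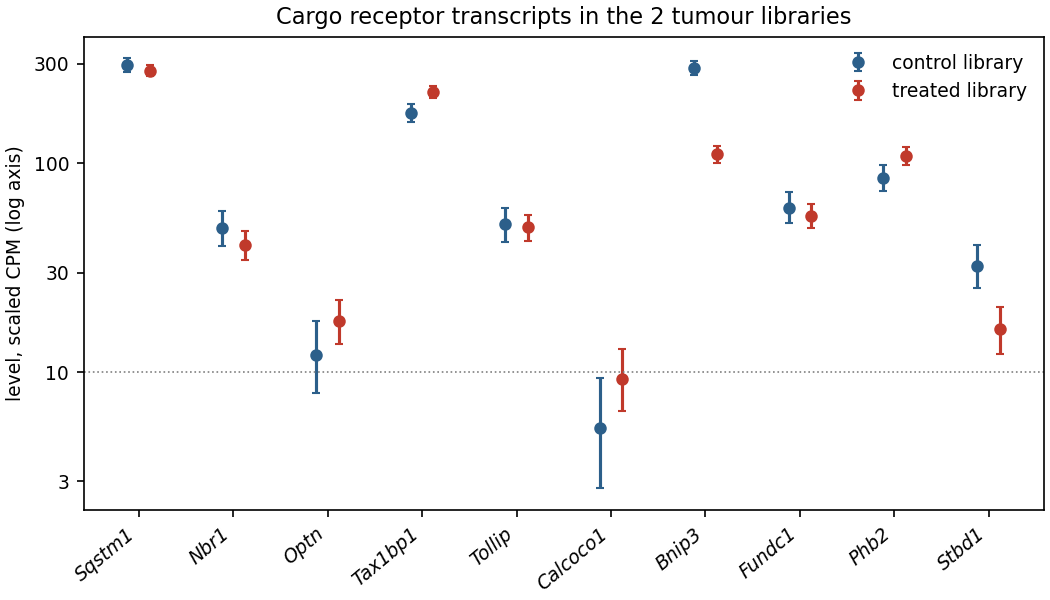
Level of each cargo receptor in scaled CPM (log axis) in the control library (blue) and the treated library (red), 1 library each. Bars are exact 95% Poisson intervals, which cover counting error only, and the dotted line is the minimum of 10 CPM. The intervals of the libraries lie apart for Bnip3 (110.7 against 286 CPM), Stbd1 (16.0 against 32.3 CPM), Tax1bp1 (221 against 174 CPM) and Phb2 (109 against 85.3 CPM).

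The depth of the treated library was 3824323 counts and that of the control library 2252214, so that 1 count was worth 0.259 and 0.449 CPM. Intervals given with a ratio are exact conditional binomial 95% intervals, which cover counting error only and not the variation between tumours. All 6 markers of mammary epithelium and 4T1 cells were measured and summed to 4789 CPM (treated) and 4342 CPM (control). Of these 6, 4 had log2 ratios above 0 and 2 below. Epcam had a ratio of 1.54 (1.435 to 1.66) and Krt19 one of 1.58 (1.30 to 1.94). Krt7, named after its value was seen, had a ratio of 0.741 (0.686 to 0.800). Sums of several other marker lists differed more. The 7 keratinocyte markers summed to 2146 against 153 CPM, the 7 neutrophil markers to 2413 against 834 CPM, the 6 endothelial markers to 132 against 277 CPM and the 6 adipocyte markers to 114 against 639 CPM. The 7 macrophage markers, at 1223 against 1264 CPM, and the 6 fibroblast markers, at 1596 against 1877 CPM, had closer sums, though their members differed in direction. Mrc1 and Cd68 were 2.99-fold and 2.57-fold higher in the treated library and Dcn 2.42-fold, whereas Lyz2 had a ratio of 0.632 and Col1a2 one of 0.703. Erythroid markers summed to 558 against 172 CPM, with Slc4a1 at 0 in the control library, and no marker of the other lists was at 0. The part of this cell mixture in any receptor's difference was not tested, and in bulk RNA fewer cells of a type cannot be told apart from less RNA per cell.

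Because the results turn on Bnip3 and Stbd1, the 250 bases before the annotated start of each are shown, read in the direction of transcription from the RefSeq promoter table of build GRCm38.p6 (the assembly behind mm10). Sqstm1, the most abundant ubiquitin-binding receptor per kilobase in both libraries and one that differed little, is given for comparison. Capitals mark each match to the cores of the hypoxia response element, ACGTG or GCGTG on either strand.
Bnip3 (chr7:138909507-138909756, minus strand): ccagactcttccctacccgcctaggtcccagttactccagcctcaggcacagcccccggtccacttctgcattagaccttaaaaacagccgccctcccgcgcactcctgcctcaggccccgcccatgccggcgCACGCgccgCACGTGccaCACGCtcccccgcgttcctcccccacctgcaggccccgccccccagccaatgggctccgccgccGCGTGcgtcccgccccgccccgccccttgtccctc
Stbd1 (chr5:92602801-92603050, plus strand): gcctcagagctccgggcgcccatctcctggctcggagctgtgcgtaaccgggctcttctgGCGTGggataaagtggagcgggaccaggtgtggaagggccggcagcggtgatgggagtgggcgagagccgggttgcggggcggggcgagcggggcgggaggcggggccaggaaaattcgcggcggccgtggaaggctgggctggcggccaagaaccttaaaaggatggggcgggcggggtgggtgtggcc
Sqstm1 (chr11:50210821-50211070, minus strand): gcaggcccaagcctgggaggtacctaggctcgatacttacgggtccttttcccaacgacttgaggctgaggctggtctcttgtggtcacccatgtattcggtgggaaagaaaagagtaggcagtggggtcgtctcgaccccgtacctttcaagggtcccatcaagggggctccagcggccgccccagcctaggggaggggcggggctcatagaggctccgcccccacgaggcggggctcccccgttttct

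In the Bnip3 window the script found 5 core matches, counting both forms and both strands, the farthest beginning 117 and the nearest 35 bases before the start. Of these, 2 are the opposite strands of one CACGTG, a palindrome that is also the E-box read by TFEB and other basic helix-loop-helix factors. At least 5 matches were present in 1.01% of the 32851 windows of the same length in the table. The Stbd1 window held 1 GCGTG, beginning 190 bases before the start, and the Sqstm1 window held neither core. At least 1 match of either form was present in 38.6% of all windows. Windows of all 10 receptors were in the table, 12 in number since Tax1bp1 and Nbr1 have a pair each, and 8 receptors had a core in at least 1 window. Taken singly, ACGTG was in windows of 4 receptors and in 16.6% of all windows, and GCGTG in windows of 6 receptors and in 28.2% of all windows. CACGTG was in a window of 1 receptor, Bnip3, and in 6.02% of all windows. The core of the antioxidant response element read by NRF2, TGACNNNGC, was in a window of 1 receptor, Tax1bp1, and in 10.2% of all windows. Counts of receptors and shares of single windows are unlike units, since a receptor with a pair of windows could match in either. The Bnip3, Stbd1 and Sqstm1 windows were 72.4%, 71.2% and 63.2% G or C, and the shares of all windows were not matched for this. These matches describe the letters in the windows and are not evidence of binding.

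Among the ubiquitin-binding receptors, Sqstm1 (ENSMUSG00000015837, mm10 chromosome 11, 50199366 to 50210827, minus strand), which gathers ubiquitinated proteins into bodies that autophagosomes engulf, had 1076 counts (treated) and 659 counts (control). That is 278 against 296 CPM, with a ratio of 0.942 (0.854 to 1.04). The libraries thus lay close for Sqstm1, within counting error. Its exons overlap those of Mrnip on the opposite strand by 580 bases, and Mrnip had 16 and 13 counts, few beside those of Sqstm1.

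Nbr1 (ENSMUSG00000017119, chromosome 11, 101552149 to 101581951, plus strand), a receptor built like Sqstm1 that co-assembles with it on aggregates, had 157 and 109 counts, or 40.6 against 48.9 CPM. Its ratio of 0.831 (0.646 to 1.07) was the lowest of the ubiquitin-binding receptors, with an interval that holds 1. Counted against Sqstm1 within each library, which needs no scaling, there were 0.146 counts of Nbr1 per count of Sqstm1 in the treated library, against 0.165 in the control. The quotient of these ratios was 0.882 (0.673 to 1.16), so the balance of this pair did not differ beyond counting error.

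Tax1bp1 (ENSMUSG00000004535, chromosome 6, 52713729 to 52766780, plus strand), a receptor of aggregates and of bacteria that also works with the NF-kB inhibitor A20, had 854 and 388 counts. It stood at 221 against 174 CPM, a ratio of 1.27 (1.12 to 1.43). The treated library was the higher one by more than counting error, though well short of 2-fold. Per count of Sqstm1 there were 0.794 counts of Tax1bp1 in the treated library, against 0.589 in the control, a quotient of 1.35 (1.15 to 1.58).

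Optn (ENSMUSG00000026672, chromosome 2, 5020642 to 5064051, minus strand) encodes optineurin, which brings ubiquitinated mitochondria and bacteria to autophagosomes after phosphorylation by the kinase TBK1. It had 68 and 27 counts, 17.6 against 12.1 CPM, and a ratio of 1.45 (0.917 to 2.36). At this depth the interval runs from just below 1 to above 2, so neither equal levels nor a 2-fold difference is outside counting error. Tollip (ENSMUSG00000025139, chromosome 7, 141874813 to 141918507, minus strand), a ubiquitin-binding adaptor of Toll-like receptor signalling that also clears aggregates, had 191 and 114 counts, or 49.4 against 51.2 CPM. Its ratio was 0.966 (0.762 to 1.23), the closest to 1 of all 10.

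Calcoco1 (ENSMUSG00000023055, chromosome 15, 102706777 to 102722178, minus strand), a paralogue of Tax1bp1 and of Calcoco2 that serves as a receptor for the endoplasmic reticulum and the Golgi, had 36 and 12 counts. Its levels were 9.31 and 5.38 CPM, with a ratio of 1.73 (0.880 to 3.65). The treated value was the higher, but the interval is the widest of the 10 and holds 1.

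The 3 mitochondrial receptors differed in unlike ways. Bnip3 (ENSMUSG00000078566, chromosome 7, 138890836 to 138909519, minus strand), a BH3-only protein of the outer membrane that recruits autophagosomes during hypoxia, had 428 counts (treated) and 638 counts (control). In CPM that is 110.7 against 286, or 2.58-fold lower in the treated library (2.28 to 2.93), with a log2 ratio of -1.36. The treated library had fewer raw counts of Bnip3 although it was the deeper one. Only 86 of the 8865 measured genes, 0.970%, had a lower log2 ratio. An antisense gene, Gm45507, shares 504 exonic bases with Bnip3 and had 0 and 2 counts.

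Fundc1 (ENSMUSG00000025040, chromosome X, 17556564 to 17572325, minus strand), the other outer membrane receptor linked to hypoxia, is controlled mainly by phosphorylation. It had 217 and 137 counts, 56.2 against 61.5 CPM, and a ratio of 0.913 (0.734 to 1.14), so its levels lay within counting error of each other. Phb2 (ENSMUSG00000004264, chromosome 6, 124712336 to 124716950, plus strand) encodes prohibitin 2, an inner membrane protein that binds LC3 once the outer membrane has ruptured. It had 421 and 190 counts, or 109 against 85.3 CPM, and a ratio of 1.28 (1.07 to 1.52), the treated library being the higher. Per count of Phb2 there were 1.02 counts of Bnip3 in the treated library, against 3.36 in the control, a 3.30-fold difference (2.66 to 4.10) that needs no library scaling. Against Fundc1 the corresponding counts of Bnip3 were 1.97 and 4.66, a 2.36-fold difference (1.83 to 3.05).

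Stbd1 (ENSMUSG00000047963, chromosome 5, 92603041 to 92606579, plus strand) binds glycogen through a starch-binding domain and brings it to lysosomes with the ATG8 protein GABARAPL1. It had 62 counts (treated) and 72 counts (control), 16.0 against 32.3 CPM. The treated library was 2.01-fold lower (1.41 to 2.88), with a log2 ratio of -0.97 that stops just short of the 2-fold rule after the pseudocount, and 248 of the measured genes, 2.80%, had a lower value. When ribosomal protein, haemoglobin and mitochondrially encoded genes were taken out of the totals its log2 ratio was -1.001 and it passed the rule. Of the 7 markers of skeletal muscle, a tissue rich in Stbd1, 2 were measured, and the 7 summed to 71.4 against 33.2 CPM. Acta1, Tnnt3, Tnnc2, Mylpf and Myh4 were higher in the treated library. Ckm (4.92 against 7.63 CPM) and Actn3 (3.10 against 4.94 CPM) were lower. The ratio intervals of Ckm (0.317 to 1.32), Actn3 (0.254 to 1.57), Mylpf (0.875 to 6.64) and Myh4 (0.513 to 3.79) hold 1. The part of muscle in the Stbd1 values was not tested.

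**Figure D2:**
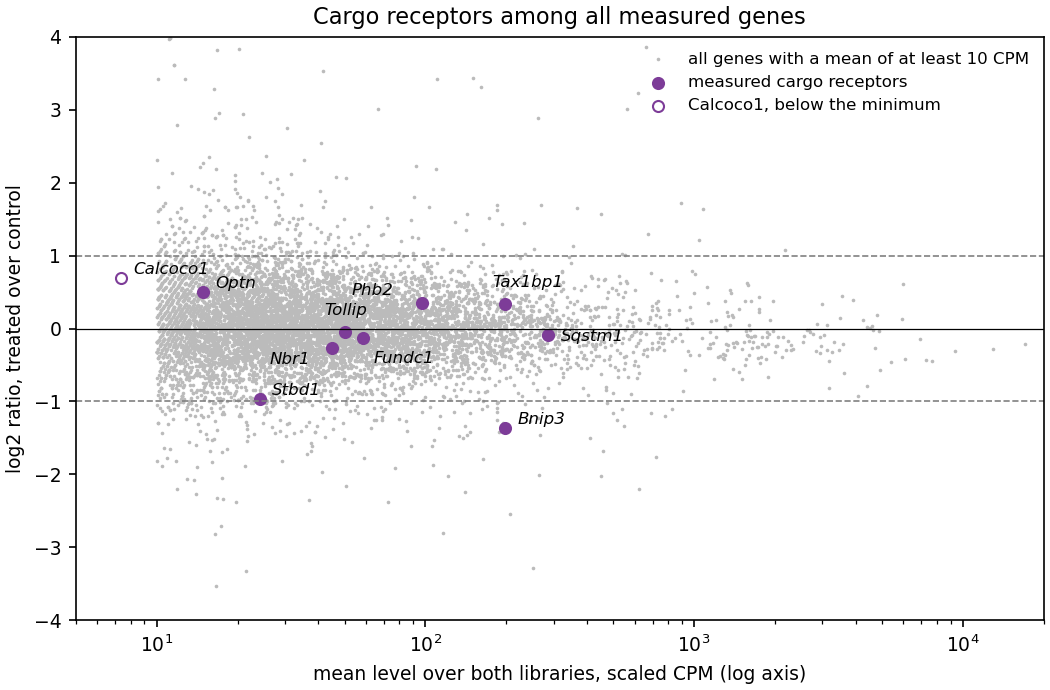
Log2 ratio of treated over control (vertical axis) against the mean level in scaled CPM (log axis) for all measured genes (grey) and for the cargo receptors (purple; the open point is Calcoco1, below the minimum). Dashed lines mark 2-fold; 76 genes lie outside the axes. Bnip3, at -1.36, lies below the lower line and Stbd1, at -0.97, on its edge, while the other receptors lie between -0.26 and 0.69.

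The make-up of the receptor pool can be read within each library without any scaling. Bnip3 held 27.2% (25.4% to 29.0%, exact Clopper-Pearson intervals) of the 2346 counts of the 10 receptors in the control library and 12.2% (11.1% to 13.3%) of the 3510 in the treated library. Stbd1 held 3.07% (2.41% to 3.85%) and 1.77% (1.36% to 2.26%). Tax1bp1 went the other way, from 16.5% (15.1% to 18.1%) in the control to 24.3% (22.9% to 25.8%) in the treated library, as did Phb2, from 8.10% (7.03% to 9.28%) to 11.99% (10.9% to 13.1%). Shares within a library depend on one another. Without Bnip3, a choice made after its value was seen, Sqstm1 held 38.6% of control and 34.9% of treated counts, whereas with Bnip3 it held 28.1% and 30.7%, the opposite order. The odds of a Tax1bp1 count against the 8 remaining receptors were still 1.30 times as high in the treated library (1.13 to 1.50), those of Phb2 1.26 times (1.05 to 1.53), and those of Stbd1 0.467 times (0.325 to 0.668).

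**Figure D3:**
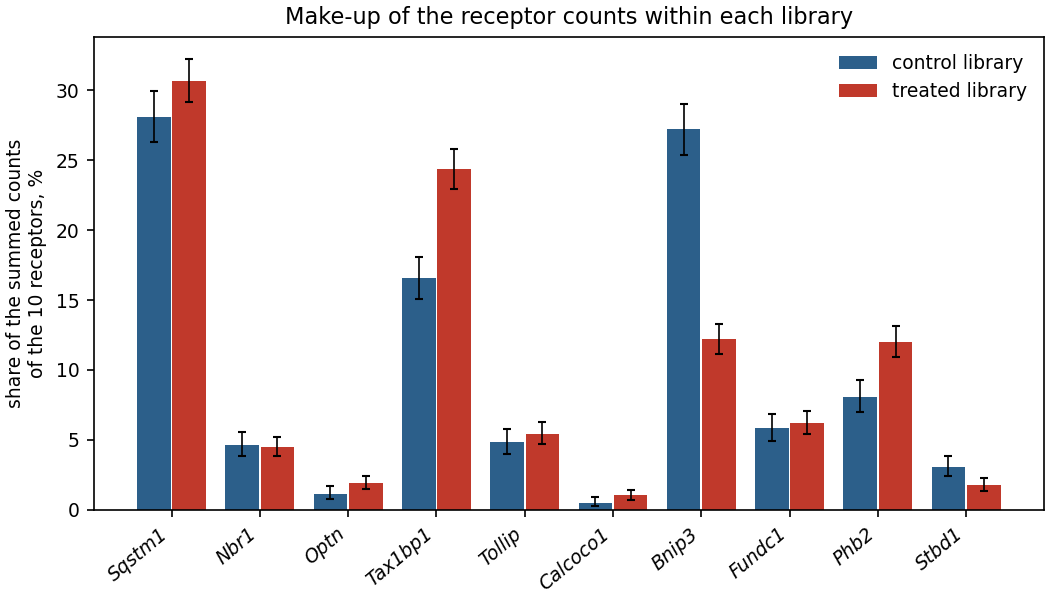
Share of the summed counts of the 10 receptors held by each one, in percent, in the control library (blue, 2346 counts) and the treated library (red, 3510 counts), with exact 95% Clopper-Pearson intervals. The Bnip3 share is 27.2% in the control and 12.2% in the treated library, and Tax1bp1 and Phb2 hold larger shares in the treated library.

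Summed over the 10 receptors, the level was 908 against 1053 CPM, a ratio of 0.863 (0.819 to 0.909). Without Bnip3 the remaining 9 summed to 797 against 766 CPM, a ratio of 1.04 (0.980 to 1.10). The sums thus differed beyond counting error with Bnip3 and not without it.

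Levels of different receptors were set side by side per kilobase of merged exons (GENCODE vM21), on the assumption that counts grow with length, which was not tested for this library kit. In the control library Bnip3 led at 126 CPM per kilobase, ahead of Sqstm1 at 88.1 by 1.43-fold (1.28 to 1.60). In the treated library their order was the reverse, with Sqstm1 at 83.0 and Bnip3 at 48.9 CPM per kilobase, a 1.70-fold gap (1.52 to 1.90). This exchange of places rests on the division by length: in counts not divided by length Sqstm1 was ahead of Bnip3 in both libraries, narrowly in the control (659 against 638) and by more in the treated library (1076 against 428). Behind them in the treated library came Phb2 (29.3), Fundc1 (23.9), Tax1bp1 (22.1), Tollip (9.77), Stbd1 (7.22), Nbr1 (5.91), Optn (4.69) and Calcoco1 (1.62 CPM per kilobase). On this scale and within counting error, Fundc1 could not be separated from Tax1bp1, Stbd1 from Nbr1, or Nbr1 from Optn. Below Sqstm1 in the control library came Fundc1 (26.1), Phb2 (22.9), Tax1bp1 (17.4), Stbd1 (14.6), Tollip (10.1), Nbr1 (7.12), Optn (3.23) and Calcoco1 (0.940 CPM per kilobase). There, on the same scale, Fundc1 could not be separated from Phb2, nor Tax1bp1 from Stbd1. Optn and Calcoco1 were the lowest receptors per kilobase in both libraries. Other places rest on the division by length as well, that of Tax1bp1 most plainly, with 9991 bases of merged exons. In counts not divided by length it was ahead of Phb2 and Fundc1 in both libraries. The treated counts were 854 against 421 and 217, and the control counts 388 against 190 and 137.

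Other measured receptors and regulators for the same organelles showed no Bnip3-sized difference. Bnip3l, the receptor nearest to Bnip3, was deposited on another scale and was not among them. Of 9 measured mitophagy genes outside the 10 receptors, 0 were at least 2-fold higher or lower, with 4 below 0 and 5 above. Their median log2 ratio was 0.12, or -0.11 when a minimum of 50 CPM was used. Phb1, the partner of Phb2 in the prohibitin ring, stood at 175 against 145 CPM, a ratio of 1.21 (1.06 to 1.38), on the same side as Phb2. Fundc2, the paralogue of Fundc1, stood at 137 against 180 CPM, a ratio of 0.759 (0.665 to 0.866). Ambra1, a mitophagy regulator, had the lowest value of this list at 0.641 (0.398 to 1.03) and Bcl2l13, an outer membrane receptor, the highest at 1.42 (0.868 to 2.38). Both rest on few counts, and both intervals hold 1.

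Among 10 measured genes for autophagy of the endoplasmic reticulum, 0 passed 2-fold in either direction, 5 lay below 0 and 5 above, and the median was 0.04, with a sign that changed under other settings. The translocon receptor Sec62 stood at 233 against 168 CPM, a ratio of 1.39 (1.23 to 1.57), and the tubule receptor Rtn3 at 221 against 189 CPM, a ratio of 1.17 (1.04 to 1.31). Ddrgk1, part of the UFMylation machinery that marks this compartment, had a ratio of 1.40 (1.12 to 1.75). On the other side, the membrane-shaping receptor Retreg1, named after its value was seen, had the lowest log2 ratio of the list at -0.36. Its ratio was 0.777 (0.605 to 1.002), with an interval that holds 1.

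Other cargo adaptors numbered 11 measured genes with a median of 0.11, of which 1 was at least 2-fold higher and 0 lower, beside 4.23% and 2.5% of all measured genes. That gene was Lgals3, the galectin that coats ruptured lysosomes, at 1628 against 522 CPM, a ratio of 3.12 (2.93 to 3.32). Galectin-3 is also abundant in macrophages and epithelia, and keratinocyte and neutrophil markers were higher in the same library; their part was not tested. Vcp, the segregase that unfolds ubiquitinated cargo, had a ratio of 1.29 (1.13 to 1.46) and Irgm1, an interferon-induced GTPase of autophagy, 1.03 (0.911 to 1.16).

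Kinases, ubiquitin genes and other regulators of the receptors numbered 19 measured genes, 0 of them past 2-fold, with a median of -0.04 whose sign changed under other settings. The ubiquitin gene Ubb, whose product the soluble receptors read, stood at 1170 against 836 CPM, a ratio of 1.40 (1.33 to 1.48), and Rps27a, a ubiquitin fusion with a ribosomal protein, at 0.809 (0.796 to 0.823). Both have close copies in the genome, so how reads were assigned is uncertain. Csnk2b, the regulatory subunit of a kinase that phosphorylates Fundc1, had a ratio of 1.57 (1.28 to 1.94). The catalytic subunits of this kinase, named after their values were seen, were not higher. Csnk2a1 had a ratio of 0.7875 (0.6267 to 0.9915) and Csnk2a2 one of 0.975 (0.768 to 1.24). Tank, an adaptor of TBK1, had a ratio of 0.628 (0.498 to 0.792). Tbk1 itself, named after its value was seen, had 32.1 against 38.1 CPM and a ratio of 0.841 (0.633 to 1.12).

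Bnip3 was not alone among genes that hypoxia induces. The hypoxia list of targets, HIF subunits and Vhl had 29 measured genes besides Bnip3, of which 6 were at least 2-fold lower and 1 at least 2-fold higher, beside 2.5% and 4.23% of all measured genes. Of the 29, 25 lay below 0, beside 47.5% of all measured genes, and the median log2 ratio was -0.41 beside 0.03. These counts are not of targets alone. Vhl, at a log2 ratio of -1.18, was one of the 6. Of the HIF subunits, Hif1a (-0.50) and Epas1 (-0.08) were among the 25, whereas Arnt (0.11) lay above 0. Vhl and the subunits were named after their values were seen. Ankrd37, a direct HIF-1 target, stood at 31.8 against 122 CPM, 3.85-fold lower in the treated library (3.10 to 4.80). Pgk1, a glycolytic enzyme, was 2.15-fold lower (2.03 to 2.28), whereas the abundant Ldha had a ratio of 0.835 (0.795 to 0.876). Adm, the vasodilator peptide adrenomedullin, was the only one at least 2-fold higher, at 3.43-fold (2.15 to 5.74). Eno1 was also higher beyond counting error, at 434 against 361 CPM, a ratio of 1.20 (1.10 to 1.31). Egln3, at 0.998 (0.825 to 1.21), and P4ha2, at 1.01 (0.622 to 1.67), lay close to 1. Eno1, Egln3 and P4ha2 were named after their values were seen. Vegfa, the main vessel growth factor, at -1.37 and the mTORC1 inhibitor Ddit4 at -1.36, both named after their values were seen, had log2 ratios like that of Bnip3. Endothelial markers, at 132 against 277 CPM, were lower in the same library; the part of vessels or oxygen supply in these values was not tested.

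Glycogen genes were examined beside Stbd1. Of 11 measured enzymes and regulators, 0 passed the 2-fold rule, 7 lay below 0, beside 47.5% of all measured genes, and the median log2 ratio was -0.26. Gbe1, the branching enzyme, was closest to Stbd1, with 16.8 against 34.1 CPM, a ratio of 0.493 (0.349 to 0.696) and a log2 ratio of -0.98. Pygl, glycogen phosphorylase, had a ratio of 0.629 (0.429 to 0.924). Ugp2, which makes the sugar donor, and Pgm1, which feeds it, were closer to 1, at 0.818 (0.682 to 0.984) and 0.877 (0.694 to 1.11).

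NRF2 targets were examined beside Sqstm1, which is one of them and which releases NRF2 by binding Keap1. Of 17 measured targets, 1 was at least 2-fold higher and 0 lower, beside 4.23% and 2.5% of all measured genes. Of the 17, 4 lay below 0, beside 47.5% of all measured genes, and the median log2 ratio was 0.32. Gsta4, a glutathione transferase, was 3.39-fold higher (1.98 to 6.17), and the cystine transporter Slc7a11 had a ratio of 1.54 (0.916 to 2.67). The ferritin genes Fth1 and Ftl1 had ratios of 1.36 (1.32 to 1.40) and 1.30 (1.25 to 1.35), though near-identical copies make their counts uncertain. Sqstm1, at a log2 ratio of -0.09, was below the median of these targets. Of the 4 below 0, the abundant Prdx1 had a ratio of 0.869 (0.8315 to 0.908). Nfe2l2, the gene of NRF2, and Keap1 were counted among the regulators above. Their ratios were 0.732 (0.632 to 0.848) and 1.30 (1.07 to 1.60). Prdx1, Nfe2l2 and Keap1 were named after their values were seen. The part of the cell mixture in these values was not tested.

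**Figure D4:**
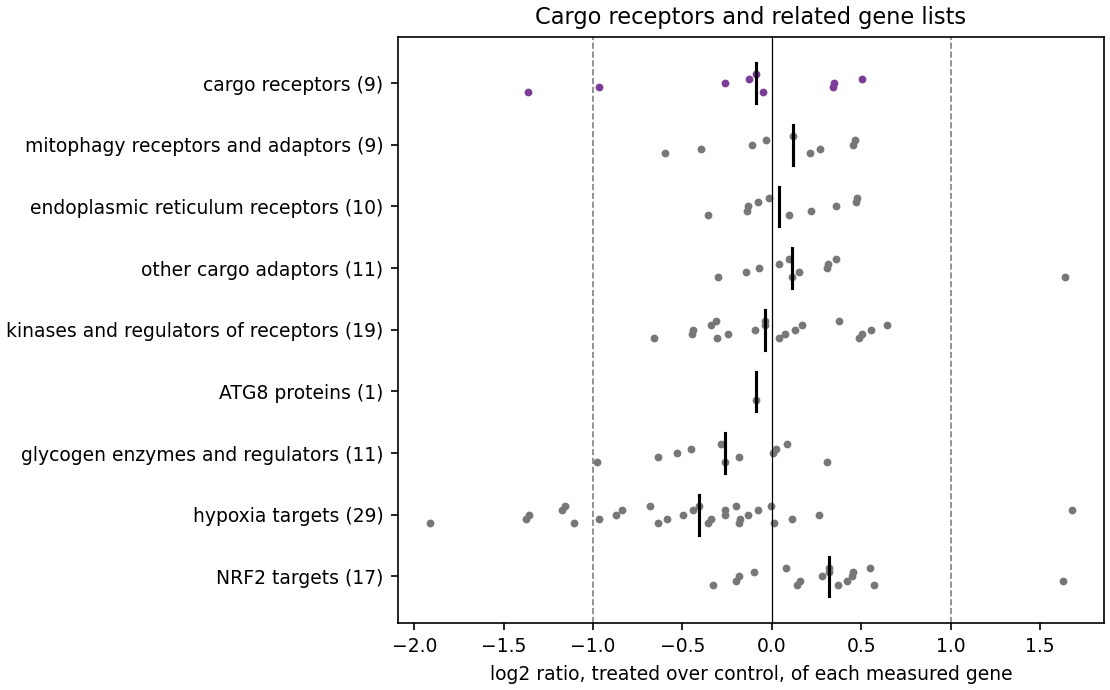
Log2 ratio of treated over control of each measured gene in the cargo receptors (purple) and in 8 related lists (grey), with the number measured in brackets; black bars are medians and dashed lines mark 2-fold. The hypoxia list has its median at -0.41 and the NRF2 list at 0.32, and the cargo receptors spread from -1.36 to 0.50 around -0.09.

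A pair of receptors closest in kind to the 10 were deposited on another scale and are kept apart. In the authors' deposited table Bnip3l (NIX), the paralogue of Bnip3, was listed at 14879 for the treated sample and 24843 for the control, a ratio of 0.599, and Calcoco2 (NDP52) at 5034 and 9770, a ratio of 0.515. The ATG8 genes Map1lc3a, Map1lc3b, Gabarapl1 and Gabarapl2 were listed with ratios of 0.904, 0.698, 0.671 and 0.969 in the authors' deposited table. Of the 31 rows of this block, 30 hold a value that is not whole. Their unit is unknown, so these ratios cannot be set beside those of the 10 receptors. Gabarap was the only ATG8 gene on the count scale, at 458 against 486 CPM, a ratio of 0.942 (0.873 to 1.02), as close to 1 as Sqstm1.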

How the data were processed

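Bulk RNA of 2 tumour libraries was measured, 1 per group. The authors deposited counts per gene, aligned to mm10 per the submitters' processing notes; the sources used here name no aligner, counting tool, strandedness or use of molecular identifiers. A leading block of 31 autophagy rows, 30 of which hold a value that is not whole, was left out of totals, scaling and lists. Another 7 columns of values could not be tied to a sample and were not used.

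Groups came from the treatment label, and columns from the sheet deposited for each sample. TMM scaling of library totals (30% of log ratios and 5% of abundances trimmed) was written from its formula in Python 3.11.15 with numpy 2.4.6, pandas 2.3.3 and SciPy 1.17.1; its factors were 1.01 and 0.989. Ratios use CPM without a pseudocount, log2 ratios a pseudocount of 1 CPM, which understates differences of low genes. Scaling, calls and intervals were tested on simulated Poisson counts drawn from a shared profile in which some genes were changed. The simulation held no spread between tumours and no shift in cell mixture, so it cannot speak to either. With 1 library per group no p-value was computed. Depth was 3824323 and 2252214 counts, and a gene with 0 counts could still lie at up to 0.776 and 1.35 CPM (3 counts).

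The receptors and the 8 related and 9 marker lists were chosen with earlier results of these data known. All receptors are named, and from each related list the 2 most abundant and the 2 most different measured genes. Gene coordinates, overlaps and exon lengths came from GENCODE vM21, promoter windows from RefSeq. Alternatives were other scalings, pseudocounts, minimum levels and folds, the second deposited sheet, and keeping the 31 rows.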

Additional observations from a re-analysis of the deposited data

How the results depend on the processing

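No paired analysis was possible because each group has 1 library, and for the same reason no replicate could be left out. Under the 8 alternatives that could change it (scalings, pseudocounts, the second sheet and the 31 rows), the log2 ratio of Bnip3 lay between -1.39 and -1.33 and that of Stbd1 between -1.001 and -0.83, and no receptor changed sign. Over 12 alternatives, 251 of 261 recomputed values stayed within the limits used. The limits were counting error for single receptors, 1.5 times for counts and shares, and 0.1 for the median of all genes. For the medians of receptors and lists, the limits were the medians of the members' own interval bounds. Those are not intervals of a median and are lenient, so the 251 do not show that the medians were stable. Medians close to 0 did change sign within those limits. The mitophagy median was -0.11 with a minimum of 50 CPM. The endoplasmic reticulum median was -0.04 with the reduced totals described next, -0.02 with a minimum of 1 CPM or none, and 0.35 with one of 50 CPM. The regulators' median reached 0.06 with a minimum of 1 CPM or none, and was also above 0 with 2 of the other totals. With a minimum of 50 CPM the median of all genes was -0.01, 6 receptors were measured and 4 hypoxia genes were 2-fold lower. The receptors at least 2-fold lower numbered 2, with Stbd1 joining Bnip3, with ribosomal protein, haemoglobin and mitochondrially encoded genes taken out of the totals (Stbd1 -1.001) and at a threshold of 1.5-fold. No alternative gave a receptor at least 2-fold higher. The share of all measured genes called lower was 1.62% with a pseudocount of 5 CPM, 4.86% with a minimum of 1 CPM and 9.02% at 1.5-fold. The share called higher was 7.66% with a minimum of 1 CPM, 2.42% with a minimum of 50 CPM and 12.8% at 1.5-fold. At 1.5-fold 12 hypoxia genes were lower. With the 31 rows kept and scaled like counts, the ATG8 median was -0.94 in place of -0.09, since 4 of its 5 genes then came from those rows. Depth limits Optn and Calcoco1 most, with 27 and 12 control counts. Intervals cover counting error only.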
